A study of Mus musculus with 12 samples.

Results

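The 10 genes described here are respiratory chain genes of the mouse mitochondrial genome: ND1, ND2, ND3, ND4, ND5, CYTB, COX1, COX2, COX3 and ATP6. They were taken by symbol from a count table of 45777 genes, and all 10 were found. All 10 were also among the 18730 genes that passed the filter on low counts. The table held 37 genes of the mitochondrial genome, of which 33 passed that filter. The data are bulk RNA sequencing of kidneys from wild type male C57BL/6 mice, in 12 libraries with 3 in each of 4 groups. The PBS group received cisplatin, a platinum drug that damages the renal tubule, as 5 weekly intraperitoneal injections of 9 mg/kg, and then 5 intravenous injections of phosphate-buffered saline 3 days apart. The EV200 and EV400 groups received the same cisplatin course and the same schedule of injections with extracellular vesicles, abbreviated iMSC-EVs in the labels, at 200 µg and at 400 µg. Kidneys of these 3 groups were collected 3 days after the last injection. The normal group received neither cisplatin nor vesicles. PBS and normal kidneys therefore differ by cisplatin and by the injections, which cannot be told apart. The labels give 1 batch, and they do not state that each biological replicate was a separate mouse. The p-values thus describe the spread among these samples alone, which may be technical.

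The mitochondrial genome is a small circle that is transcribed as long precursors from both strands. Most of its messenger RNAs are flanked by transfer RNAs, and excision of the tRNAs releases them. The products are core subunits of complex I (ND genes), complex III (CYTB), complex IV (COX genes) and the ATP synthase (ATP6), which are assembled with many subunits encoded in the nucleus. Kidney proximal tubules and thick ascending limbs are rich in mitochondria because they power solute transport, and mitochondria of the proximal tubule are a known site of cisplatin injury.

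The ends of the annotated genes are shown because they differ in whether the stop codon is fully encoded. The last 24 bases of each gene are printed in order along the genome, with the stop codon in capitals, from the GENCODE vM21 transcripts of GRCm38. All 10 lie on the plus strand. In 7 the stop codon is complete within the annotated gene. In COX3, ND4 and CYTB only its first T is encoded, and in such mitochondrial mRNAs the poly(A) tail supplies the missing bases. In 7 of the 10 the next annotated gene is a tRNA on the same strand. After COX1 and ND5 the next gene lies on the minus strand, so the printed bases there end the annotated gene, which need not be the end of the mRNA. The tRNA genes after ND1 and ND2, on the same strand, start at MT:3706 and MT:4950, inside the printed stop codons. The printed bases of ND1 and ND2 therefore need not all remain in the mRNA once the tRNA is cut out.
ND1: gcgggagtaccaccatacataTAG
ND2: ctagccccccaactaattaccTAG
COX1: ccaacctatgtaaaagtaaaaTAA
COX2: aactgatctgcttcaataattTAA
ATP6: ctatatctacatgataatacaTAA
COX3: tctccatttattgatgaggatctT
ND3: aaaggattagaatgaacagagTAA
ND4: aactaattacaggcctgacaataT
ND5: ttatactcaattaatctcgagTAA
CYTB: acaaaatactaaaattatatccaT
These ends close genes at MT:2751-3707 (ND1), MT:3914-4951 (ND2), MT:5328-6872 (COX1), MT:7013-7696 (COX2), MT:7927-8607 (ATP6), MT:8607-9390 (COX3), MT:9459-9806 (ND3), MT:10167-11544 (ND4), MT:11742-13565 (ND5) and MT:14145-15288 (CYTB). None of them has introns.

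Some of these genes share bases with a neighbour, and reads there can belong to either gene. ATP6 overlaps ATP8, its partner on a bicistronic mRNA, over 43 bases at MT:7927-7969. The overlap is shown with the start codon of ATP6 and the stop codon of ATP8 in capitals.
ATP8 and ATP6: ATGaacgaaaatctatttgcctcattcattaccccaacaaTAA
ND4 overlaps ND4L, also on 1 mRNA, over 7 bases. ATP6 overlaps COX3 over 1 base, and ND5 overlaps ND6 over 14 bases on the opposite strand. The kit was strand-specific, but the strand setting of the counting is not given in the sources used here. A further ambiguity comes from a nuclear copy of mitochondrial DNA on chromosome 1 of GRCm38, where GENCODE vM21 annotates 7 pseudogenes between 24611535 and 24616197 on the minus strand. They match 6 of the 10 genes, ND4, ND3, COX3, ATP6, COX2 and COX1, with 1 mismatch in 3843 aligned bases. The copy covers 99.9% of COX3 and 31.3% of COX1. Reads of these 6 genes are uncertain to the extent that the authors' counting could split them between both loci. By symbol, 0 of the 7 copies were among the genes of the count table, so no levels of the copies can be given. ND1, ND2, ND5 and CYTB have no annotated copy there.

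The libraries held 46.6 to 62.1 M counts each. The 10 genes took 14.2, 17.4 and 14.7% of all counts in PBS libraries 1 to 3, 13.7, 15.8 and 15.3% in EV200 libraries, 15.8, 15.1 and 19.0% in EV400 libraries, and 14.7, 15.6 and 14.7% in normal libraries. At these depths a 95% Wilson interval of such a share spans at most 0.011 percentage points to either side, which covers counting error only. The means were 15.4 ± 1.72% in PBS, 15.0 ± 1.09% in EV200, 16.6 ± 2.05% in EV400 and 15.0 ± 0.543% in normal kidneys (SD, n = 3 each). The groups overlapped, and the highest shares belonged to EV400 library 3 and PBS library 2. In every library 8 of the 10 most abundant genes belonged to this set, with COX1 first.

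Per transcript length, in the TPM values that the authors deposited, the 10 genes spanned a 13.1-fold range of means over the 12 libraries. COX1, the catalytic core of cytochrome c oxidase, was highest at 53193 ± 3085 TPM (SD, n = 12 libraries of all groups). CYTB, the haem-binding core of complex III, followed with 37413 ± 2091 TPM. COX2, ATP6, ND1 and COX3 averaged 28197, 27234, 26324 and 23436 TPM. ND4 and ND2 were alike, with 18210 and 18204 TPM, and ND4 exceeded ND2 in 7 of 12 libraries. ND5 averaged 12384 TPM and ND3 was lowest at 4053 ± 607 TPM. COX1, CYTB, ND5 and ND3 held ranks 1, 2, 9 and 10 in all 12 libraries. COX2 was above ATP6 in 10 libraries and ATP6 above ND1 in 11, so this part of the order lies within the spread between libraries. The complete order held in 5 libraries. Mean TPM and start position had a Spearman rho of -0.2 over the 10 genes, which share 1 precursor.

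**Figure D1:**
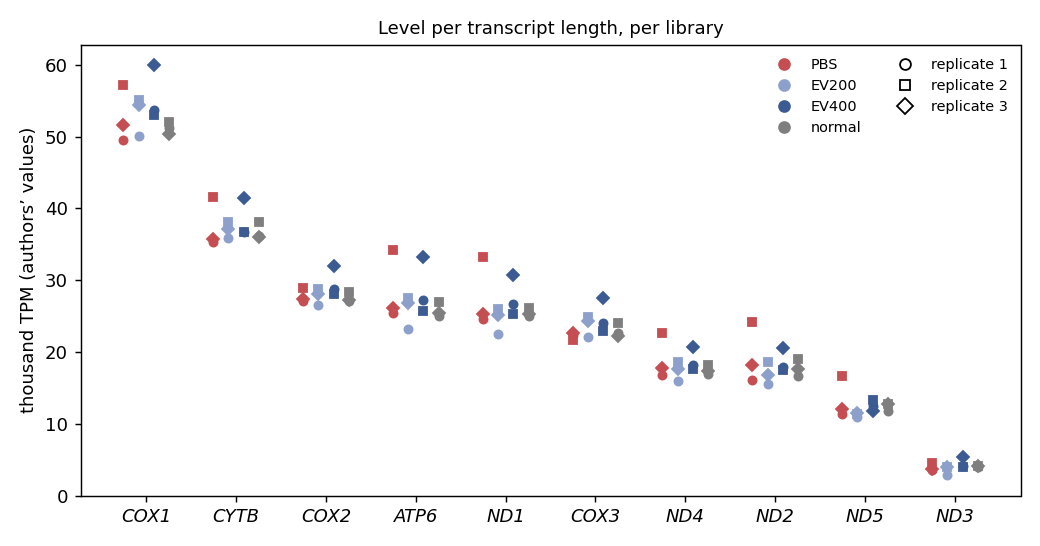
TPM as deposited by the authors (vertical axis, from 0) for each of the 10 genes, ordered by mean, with 1 point per library coloured by group and shaped by replicate. COX1 lies between 49556 and 59935 TPM and ND3 between 2828 and 5423 TPM, while COX2, ATP6 and ND1 overlap.

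The levels between groups are given in CPM, counts scaled to library size times a TMM factor, which sets typical genes equal between libraries. Complex I, which oxidizes NADH and pumps protons, is represented by 5 genes. ND1, part of the arm next to the quinone site, had 12583, 15707 and 12673 CPM in PBS libraries, 11983, 14279 and 12474 CPM in EV200, 14746, 13377 and 20313 CPM in EV400, and 14123, 15097 and 14106 CPM in normal libraries. ND2, a proton-pumping membrane subunit, had 8916, 12345 and 9873 CPM in PBS, 8990, 11126 and 9047 CPM in EV200, 10697, 10079 and 14685 CPM in EV400, and 10193, 11916 and 10604 CPM in normal libraries. In both genes PBS library 2 was far above the other PBS libraries and above every normal library, and EV400 library 3 was the highest of all 12. ND4, another proton-pumping subunit, had 12368, 15357 and 12841 CPM in PBS, 12241, 14762 and 12603 CPM in EV200, 14490, 13428 and 19737 CPM in EV400, and 13771, 15193 and 13914 CPM in normal libraries, with the same high libraries.

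ND3, a small complex I subunit, had 662, 786 and 682 CPM in PBS, 549, 797 and 721 CPM in EV200, 835, 771 and 1302 CPM in EV400, and 828, 879 and 840 CPM in normal libraries. All PBS and all EV200 libraries were below all normal libraries. ND5, the distal proton-pumping subunit, had 11142, 14963 and 11517 CPM in PBS, 11068, 11949 and 10872 CPM in EV200, 13116, 13390 and 14821 CPM in EV400, and 12701, 14015 and 13471 CPM in normal libraries. Here every EV200 library was below every EV400 and every normal library, and PBS library 2 was the highest of all 12, the only gene of the 10 for which EV400 library 3 was not.

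CYTB had 21625, 23455 and 21461 CPM in PBS, 22867, 25081 and 22043 CPM in EV200, 24204, 23207 and 32660 CPM in EV400, and 24372, 26406 and 23993 CPM in normal libraries. Every PBS library was below every normal library. Among the complex IV genes, COX1 had 40961, 43558 and 41848 CPM in PBS, 43133, 48915 and 43565 CPM in EV200, 47824, 45348 and 63883 CPM in EV400, and 46676, 48669 and 45268 CPM in normal libraries. The PBS libraries lay below those of EV400 and of normal kidneys with no overlap.

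COX2, which receives electrons from cytochrome c, had 9935, 9737 and 9804 CPM in PBS, 10120, 11329 and 9973 CPM in EV200, 11344, 10622 and 15103 CPM in EV400, and 10925, 11720 and 10844 CPM in normal libraries. COX3, a core subunit without metal centres, had 9371, 8391 and 9329 CPM in PBS, 9669, 11193 and 9860 CPM in EV200, 10844, 9921 and 14868 CPM in EV400, and 10440, 11418 and 10144 CPM in normal libraries. In these 2 genes all PBS libraries were below all libraries of the other groups, and PBS library 2 was the lowest of the 12. ATP6, the proton channel subunit of the ATP synthase, had 9285, 11505 and 9308 CPM in PBS, 8798, 10795 and 9458 CPM in EV200, 10707, 9682 and 15617 CPM in EV400, and 10016, 11083 and 10055 CPM in normal libraries, with all groups overlapping.

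**Figure D2:**
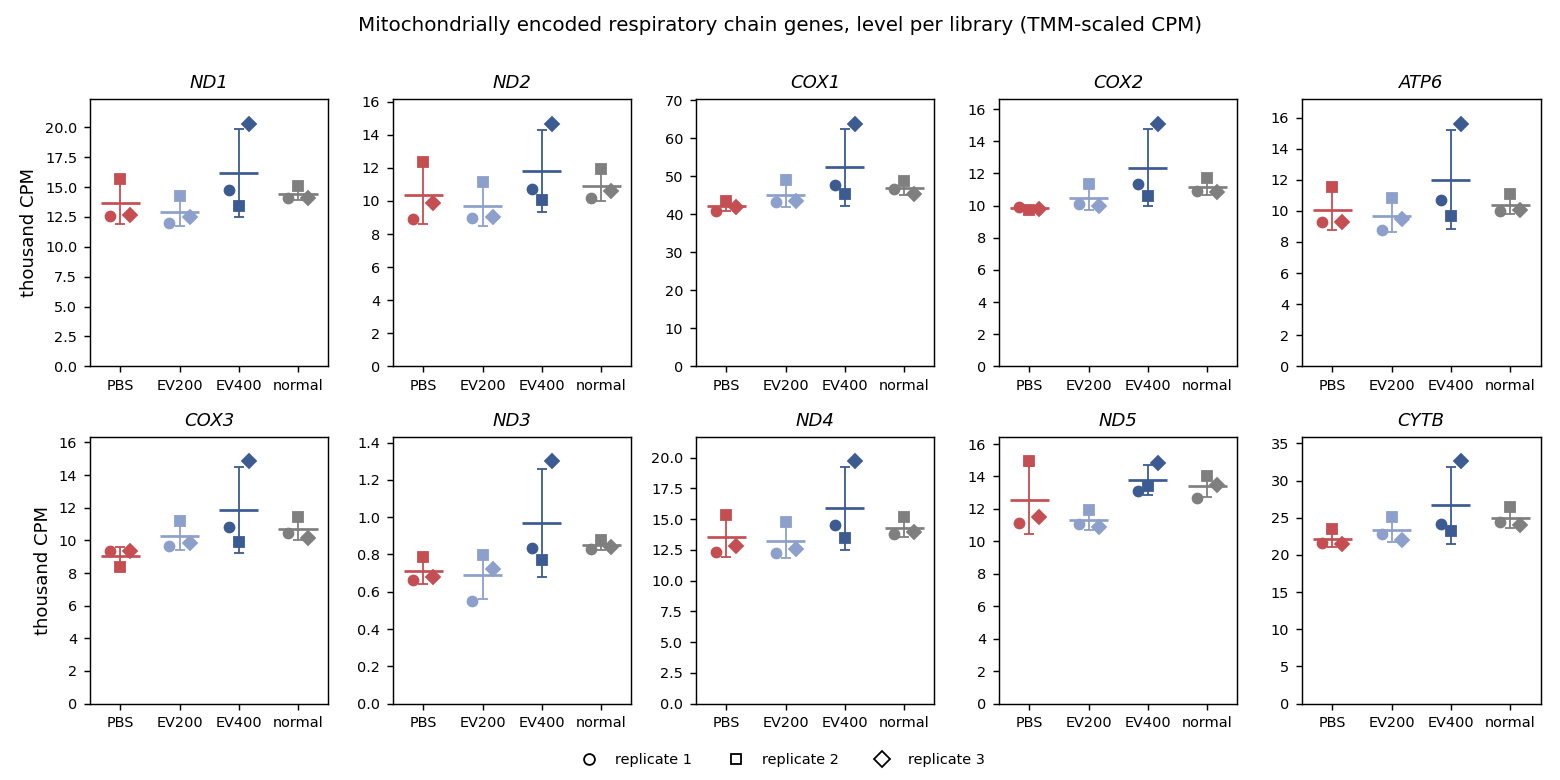
TMM-scaled CPM (vertical axes, from 0) of the 10 genes in genome order, with 1 point per library, the group mean as a line and the SD as an error bar (n = 3). EV400 library 3 is the highest point in 9 of 10 panels, and PBS library 2 is the highest PBS point in 8.

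EV400 library 3 stood apart from its group in all 10 genes. It had 1.12 times the mean of EV400 libraries 1 and 2 for ND5 and 1.62 times for ND3, with a median of 1.41 over the genes. Its summed level of the 10 genes was 212990 CPM, 1.35 times the normal mean, while the 11 other libraries had 0.867 to 1.05 times the normal mean. The sums were 143996 ± 10302 CPM in PBS, 146754 ± 11683 CPM in EV200, 173873 ± 34172 CPM in EV400 and 157893 ± 7376 CPM in normal kidneys (SD, n = 3 each). The medians of the 10 genes in the EV400 comparisons below are therefore also given without that library. For some of the nuclear lists and for subsets of the 10 genes, the EV400 medians are given with it only.

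The comparison of PBS with normal kidneys asks what cisplatin with saline injections did to these transcripts. None of the 10 genes passed an adjusted p of 0.05 in the quasi-likelihood test of edgeR, adjusted by Benjamini-Hochberg over 18730 genes, where 2.74% of all genes did. None had an unadjusted p under 0.05, a level that 29.8% of all genes reached. DESeq2 called 0 of the 10 and 16.2% of the genes to which it gave an adjusted p. With library quality weights, limma-voom called 3 of the 10, ND5, ND3 and CYTB, with adjusted p of 0.0234, 0.0442 and 0.0499, and 32.9% of all genes, a share near that among the 10. All 10 log2 fold changes were negative, from -0.26 for ND3 to -0.05 for ATP6, with a median of -0.12 against 0.00 over all genes; with library totals as the only scaling, 7 were positive. ND3 had a log2 fold change of -0.26 ± 0.19 (SE) and an adjusted p of 0.364. COX3 had -0.24 ± 0.14 and an adjusted p of 0.276, the smallest of the 10. In 5 genes, COX1, COX2, COX3, ND3 and CYTB, all PBS libraries were below all normal libraries, where 20% of all genes showed such a separation downward. The 95% intervals of the 10 genes ran from 0.632-fold to 1.25-fold. Without PBS replicate 1 the median was -0.08.

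The scaling shifts all genes together. With library totals alone the median log2 fold change of all genes was 0.17 for PBS against normal, -0.17 for EV400 against PBS and 0.11 for EV200 against normal. Relative to that shift the 10 genes had medians of -0.12, 0.27 and -0.11, close to -0.13, 0.29 and -0.11 with TMM scaling.

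The comparison of EV200 with PBS kidneys asks whether the lower vesicle dose altered them. In this comparison edgeR called none of the 10 genes, with 0.016% of all genes called, and none had an unadjusted p under 0.05, as 6.9% of all genes did. DESeq2 and limma-voom also called 0, with 0.29% and 8.8% of all genes called. Log2 fold changes ran from -0.15 for ND5 to 0.18 for COX3, with 4 positive and a median of -0.04 against -0.00 over all genes. All 3 complex IV genes and CYTB had positive values, and the 5 ND genes and ATP6 had negative ones. COX2 and COX3 were higher in all EV200 than in all PBS libraries, as 5.53% of all genes were. The intervals spanned 0.727-fold to 1.41-fold. The median was 0.07 without PBS replicate 2 and 0.06 without EV200 replicate 1, -0.09 and -0.07 without PBS replicates 1 and 3, and -0.12 and -0.02 without EV200 replicates 2 and 3. Without PBS replicate 2, ND1, ND2, ND3, ND4 and ATP6 turned positive.

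EV400 kidneys had a positive log2 fold change against PBS kidneys in all 10 genes, from 0.14 for ND5 to 0.45 for ND3, with a median of 0.26 against -0.02 over all genes; with library totals alone ND5 was at -0.02. None passed the adjusted threshold in edgeR, with 0.0801% of all genes called. Unadjusted p was under 0.05 for 4 of the 10, where 23.5% of all genes reached that level. The 4 were ND3 (0.45 ± 0.19, SE), COX3 (0.40 ± 0.14), COX2 (0.33 ± 0.13) and COX1 (0.31 ± 0.13), with edgeR adjusted p of 0.191, 0.169, 0.18 and 0.198. DESeq2 called COX3, with an adjusted p of 0.0496, and limma-voom called 0, where these tools called 6.99% and 14.6% of all genes. COX1, COX2 and COX3 were higher in all EV400 than in all PBS libraries, a separation that 12.2% of all genes showed. The intervals ran from 0.884-fold to 1.81-fold. Without EV400 replicate 3 the median was 0.10.

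Between the doses, edgeR called none of the 10 genes in EV400 against EV200 kidneys, with 0.00534% of all genes called, and DESeq2 and limma-voom called 0, with 0.0985% and 0.774% of all genes called. The log2 fold changes were all positive, from 0.19 for CYTB to 0.49 for ND3, with a median of 0.27 against -0.02 over all genes. ND3 (0.49 ± 0.19, SE) and ND5 (0.29 ± 0.12) had unadjusted p under 0.05, and adjusted p of 0.769 in edgeR for both. Such a p was reached by 6.34% of all genes. ND5 was the 1 gene higher in all EV400 than in all EV200 libraries, as 5.1% of all genes were. Without EV400 replicate 3 the median was 0.08.

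Against normal kidneys, EV200 kidneys had negative log2 fold changes in all 10 genes, with a median of -0.11, of which 5 were positive with library totals alone. edgeR called 0 of the 10, with 0.0694% of all genes called, and neither DESeq2 nor limma-voom called any, with 2.62% and 5.86% of all genes called. The median was -0.05 without normal replicate 2, -0.06 without EV200 replicate 1 and -0.18 without EV200 replicate 2. No unadjusted p was under 0.05 among the 10, as it was for 13.2% of all genes. ND3 (-0.30 ± 0.19, SE, adjusted p of 0.521 in edgeR) and ND5 (-0.25 ± 0.12, adjusted p of 0.424) were lower in all EV200 than in all normal libraries, as 12.9% of all genes were. EV400 kidneys had positive log2 fold changes against normal kidneys in all 10 genes, with a median of 0.15. No gene of the 10 and 0% of all genes were called there by edgeR, where 1308 of all genes (6.98%) and none of the 10 had an unadjusted p under 0.05. DESeq2 called 35 genes (0.187%) and limma-voom 1481 (7.91%), in both cases none of the 10. Without EV400 replicate 3 the median was -0.02, and 8 of the 10 genes were negative; without EV400 replicate 2 it was 0.26. A joint edgeR test of any difference among the 4 groups called none of the 10 and 0.0641% of all genes, with adjusted p from 0.277 for ND3 to 0.607 for ND2.

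**Figure D3:**
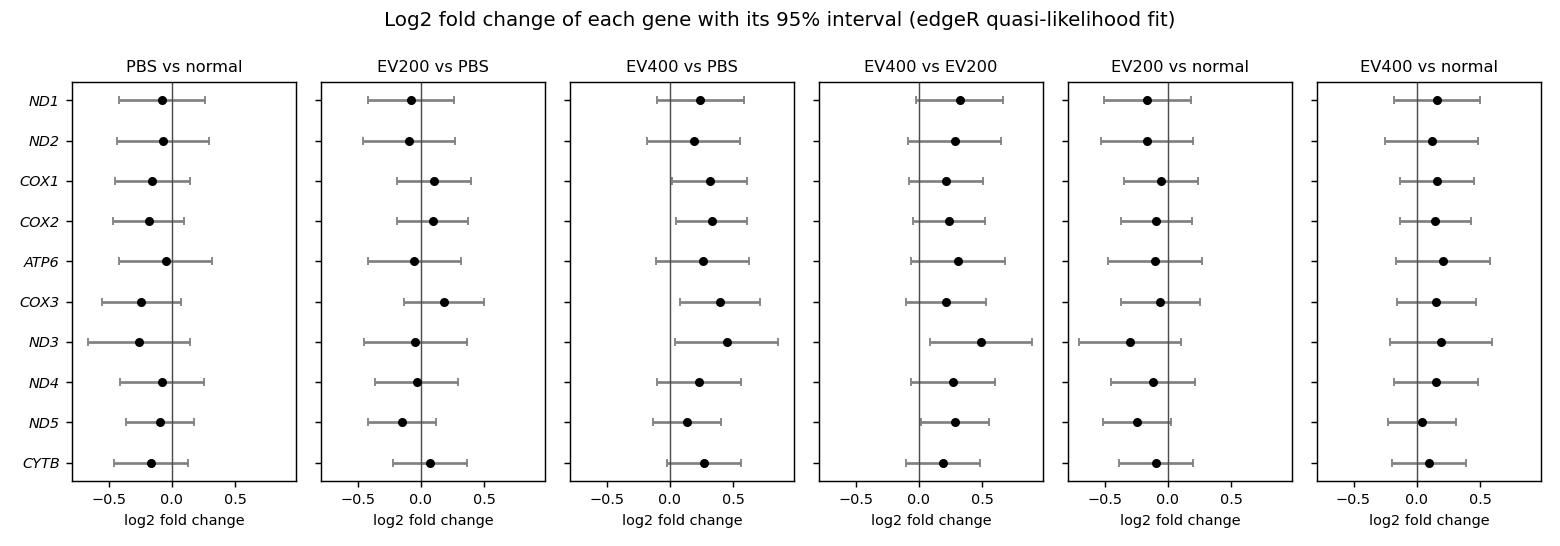
Log2 fold change (horizontal axes) of each gene with its 95% interval in 6 comparisons, from the edgeR fit to all 12 libraries. All points lie left of 0 for PBS and EV200 against normal and right of 0 for EV400 in its 3 comparisons, and most intervals cross 0.

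The genes varied together across libraries, with Pearson r between pairs of log2 CPM from 0.36 to 0.99 and a median of 0.89 over 45 pairs and 12 libraries. All share a precursor, library and scaling factor, so this is a description. ND5 and COX3 were the least alike, with r = 0.36. ND1 with ATP6 and with ND4 had r = 0.99. The balance between the genes is given as each gene's share of the counts of the 10, on the log2 scale relative to the mean of the normal libraries. The normal libraries deviated from this mean, which is their own, by at most 0.06, and EV400 library 1 by at most 0.05.

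PBS library 2 departed most broadly from that mean. Relative to normal, its log2 share was higher by 0.20 for ND2, 0.18 for ND5, 0.17 for ATP6, 0.14 for ND1 and 0.12 for ND4. Its share of COX3 was at -0.33 and that of COX2 at -0.18. Counts of the 5 complex I genes were 0.959 times those of the 3 complex IV genes in this library, while the 11 other libraries had ratios from 0.713 to 0.799. By group the ratio was 0.832 ± 0.11 in PBS, 0.725 ± 0.0145 in EV200, 0.766 ± 0.0102 in EV400 and 0.784 ± 0.0223 in normal kidneys (SD, n = 3 each). All EV200 ratios were below all EV400 and all normal ratios. Single genes stood out in other libraries. The ND3 share was at -0.45 in EV200 library 1, and the ND5 share was at -0.29 in EV400 library 3.

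**Figure D4:**
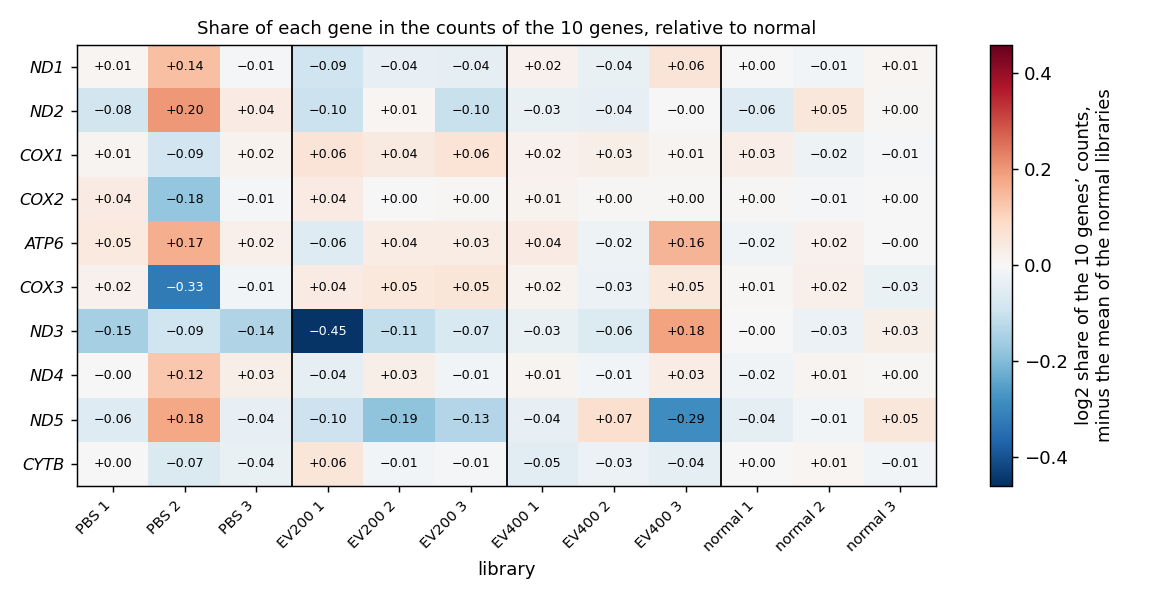
Log2 share of each gene in the summed counts of the 10 genes, minus the mean of the normal libraries (colour and printed value), for 10 genes in genome order (rows) and 12 libraries (columns). PBS library 2 combines high ND2, ND5 and ATP6 shares with a COX3 share at -0.33, and the normal columns, set against their own mean, stay within 0.06 of 0.

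The partner genes on shared mRNAs are given relative to ATP6 and ND4. ATP8 had 0.261 to 0.334 times the CPM of ATP6 over the 12 libraries, with the lowest ratio in EV200 library 1 and the highest in PBS library 2. ND4L had 0.12 to 0.144 times the CPM of ND4. ATP8, ND4L and ND6, the complex I gene on the opposite strand, were not called in any comparison by edgeR. Unadjusted p was under 0.05 for all 3 in EV400 against EV200 and for ND4L in EV400 against PBS. Of all genes, 6.34 and 23.5% reached that level in these comparisons. ATP8 had 3442, 3019 and 4970 CPM in EV400 and 2293, 3239 and 2969 CPM in EV200 libraries. ND4L had 1933, 1838 and 2852 CPM in EV400 and 1576, 1924 and 1730 CPM in EV200 libraries. In both, EV400 library 3 was the highest and the groups overlapped. ND6 had 453, 708 and 490 CPM in PBS, 393, 519 and 487 CPM in EV200, 584, 619 and 643 CPM in EV400, and 575, 544 and 566 CPM in normal libraries. Every EV200 library was below every EV400 and every normal library.

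The ribosomal RNAs of the same genome lie first on the precursor, and both had their highest mean in PBS kidneys. The large rRNA mt-Rnr2 had 811, 1156 and 741 CPM in PBS, 548, 572 and 552 CPM in EV200, 831, 680 and 925 CPM in EV400, and 658, 605 and 651 CPM in normal libraries. All PBS libraries were above all EV200 and all normal libraries. Its log2 fold change was 0.50 ± 0.15 (SE) for PBS against normal, with an unadjusted p of 0.00716 and an edgeR adjusted p of 0.0726. For EV200 against PBS it was -0.69 ± 0.16, with an edgeR adjusted p of 0.589. The small rRNA mt-Rnr1 had 0.46 ± 0.19 and -0.51 ± 0.19 in the same comparisons, with edgeR adjusted p of 0.133 and 0.657. A poly(A) kit selects against rRNA, so these levels need not reflect its abundance. No tRNA gene was called by edgeR in any comparison. The smallest unadjusted p among them were 0.00101 for TrnN and 0.00102 for TrnL1, both for EV400 against EV200. The log2 fold changes were 1.66 ± 0.38 (SE) and 0.73 ± 0.17, with an edgeR adjusted p of 0.769 for both. TrnN had at most 0.355 CPM in any library.

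The proteins work with nuclear partners. A list of 75 nuclear subunits of complexes I to IV and the ATP synthase was tested in the same fit. For PBS against normal, all 75 had negative log2 fold changes, with a median of -0.31 against -0.12 for the 10 mitochondrial genes. For EV200 against PBS all 75 were positive with a median of 0.26, and for EV400 against PBS all 75 were positive with a median of 0.34. None was called by edgeR in any of the 6 comparisons. Unadjusted p was under 0.05 for 32, 9 and 42 of them in these 3 comparisons, where 29.8, 6.9 and 23.5% of all genes reached that level. DESeq2 called 1, 0 and 2 of the 75, against 16.2, 0.29 and 6.99% of all genes. limma-voom called 48, 9 and 12 of them, against 32.9, 8.8 and 14.6% of all genes.

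The values by complex were close to each other. For PBS against normal, medians were -0.30 for 36 complex I subunits, -0.36 for 4 complex II subunits, -0.33 for 9 of complex III, -0.28 for 11 of complex IV and -0.30 for 15 of the ATP synthase. Sdhb, the iron-sulphur subunit of complex II, which has no mitochondrially encoded subunit, had a mean of 217 ± 60.5 CPM in PBS and 296 ± 11.4 CPM in normal kidneys (SD, n = 3 each). Its log2 fold change was -0.45 ± 0.17 (SE), with an edgeR adjusted p of 0.115. Ndufa4, a subunit of complex IV, averaged 349 ± 52.4 CPM in EV400 and 258 ± 58.0 CPM in PBS kidneys (SD, n = 3 each), with an edgeR adjusted p of 0.162.

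PBS library 2 weighed on these medians. With scaling without the mitochondrial genome, its nuclear subunits averaged 6.98 (log2 CPM), against 7.48 to 7.89 in the 11 other libraries. On the same scale its mitochondrial genes averaged 13.72, within the range of 13.49 to 13.80 of all libraries but EV400 library 3. The difference between both means was 6.74 in that library, against 5.77 to 6.29 in the others. Without PBS replicate 2 the nuclear medians were -0.14 for PBS against normal, 0.09 for EV200 against PBS and 0.17 for EV400 against PBS, with 75 of 75 negative in the first and 70 and 72 positive in the others. Without PBS replicate 1 the median for EV200 against PBS was 0.40. With all libraries, the other nuclear medians were 0.08 for EV400 against EV200, -0.07 for EV200 against normal and 0.02 for EV400 against normal. Without EV400 replicate 3 they were 0.25 for EV400 against PBS, -0.01 for EV400 against EV200 and -0.05 for EV400 against normal. Whether mitochondrial and nuclear genes responded differently was not tested.

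**Figure D5:**
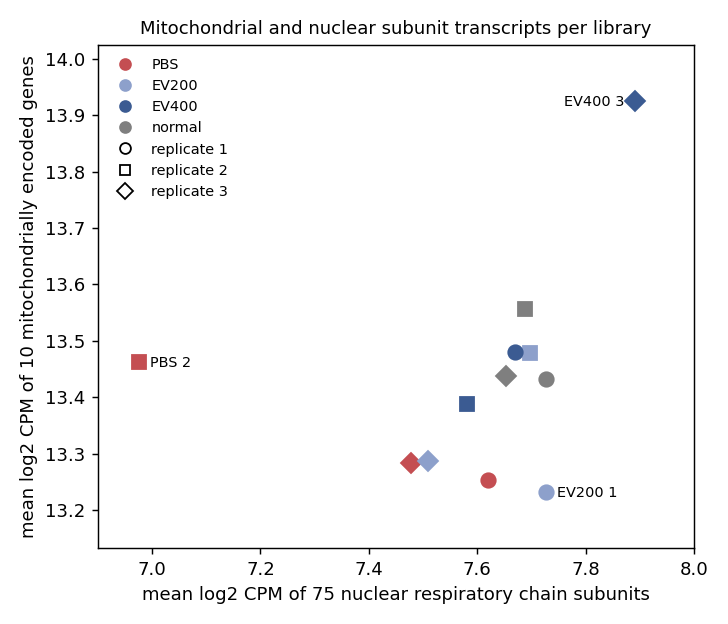
Mean log2 CPM of the 10 mitochondrially encoded genes (vertical axis) against that of 75 nuclear respiratory chain subunits (horizontal axis). Each point is 1 library, coloured by group and shaped by replicate, and the axes do not start at 0. Vertical values were scaled over all genes and horizontal values without the mitochondrial genome, so both axes are on different CPM scales. PBS library 2 lies alone at the left at 6.98, and EV400 library 3 alone at the top at 13.93.

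Genes that copy, express and maintain the mitochondrial genome were followed in further lists, none of whose members was called by edgeR in any comparison. For 20 genes of mitochondrial DNA maintenance and transcription the median log2 fold change was -0.13 for PBS against normal and 0.14 for EV400 against PBS, with 4 unadjusted p under 0.05 in each, where 29.8 and 23.5% of all genes had one. Tfam, which packages mitochondrial DNA and starts its transcription, averaged 48.7 ± 6.29 CPM in EV400 and 39.4 ± 1.35 CPM in PBS kidneys (SD, n = 3 each), a log2 fold change of 0.31 ± 0.10 (SE) with an edgeR adjusted p of 0.152. Twnk, the mitochondrial DNA helicase, had a mean of 26.6 ± 2.73 CPM in PBS and 31.2 ± 1.36 CPM in normal kidneys (SD, n = 3 each), with an edgeR adjusted p of 0.13.

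For 25 genes of mitochondrial RNA processing and stability the medians were -0.15 for PBS against normal and 0.17 for EV400 against PBS, the second 0.11 without EV400 replicate 3. Lrpprc, which stabilizes mitochondrial mRNAs and promotes their polyadenylation, had a mean of 113 ± 9.26 CPM in PBS and 138 ± 3.08 CPM in normal kidneys (SD, n = 3 each). Its log2 fold change was -0.29 ± 0.08 (SE), with an edgeR adjusted p of 0.0593. Hsd17b10, a subunit of the mitochondrial RNase P that cuts tRNAs out of the precursor, had -0.29 ± 0.10 for PBS against normal and 0.35 ± 0.10 for EV400 against PBS, with edgeR adjusted p of 0.0922 and 0.142. The 78 mitochondrial ribosomal proteins had medians of -0.24 and 0.24 in these comparisons, with 76 of 78 negative in the first and 77 positive in the second. The 38 assembly factors had -0.21 and 0.21. PBS library 2 weighed on these lists too. Without it the ribosomal proteins had medians of -0.12 and 0.14, with 73 negative in the first and 73 positive in the second, and the assembly factors had -0.12 and 0.14. The comparisons with PBS share the PBS libraries.

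Further lists describe how mitochondria are made and cleared. The 12 regulators of mitochondrial biogenesis had a median of 0.02 for PBS against normal, with 7 positive, and of -0.05 without PBS replicate 2. Among them Ppara, a receptor that drives fatty acid oxidation, had a mean of 116 ± 10.2 CPM in PBS and 161 ± 9.06 CPM in normal kidneys (SD, n = 3 each), with an edgeR adjusted p of 0.0832, and Sirt3, a mitochondrial deacylase, had a log2 fold change of -0.55 ± 0.16 (SE) and an edgeR adjusted p of 0.063. In the same comparison the 14 chaperones and proteases had a median of -0.27, and of -0.15 without PBS replicate 2. Of 10 mitophagy genes, 9 were tested and had a median of -0.20 there. Bnip3, a mitophagy receptor, averaged 135 ± 20.2 CPM in EV400 and 93.4 ± 2.97 CPM in PBS kidneys (SD, n = 3 each), with a log2 fold change of 0.53 ± 0.10 (SE) and an edgeR adjusted p of 0.0767.

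Among 10659 genes outside the mitochondrial genome averaging at least 5 CPM, those whose log2 CPM most resembled the mean of the 10 genes over the 12 libraries were Fundc2, an outer mitochondrial membrane protein, with r = 0.96, and Ndufaf4, a complex I assembly factor, also with r = 0.96. Ufm1, Ccny and Rnf13 followed with r of 0.96, 0.95 and 0.95. Without EV400 library 3 and EV200 library 1, the farthest from the median, r was 0.95 for Ndufaf4 and 0.83 for Fundc2. Ndufaf4 had 40.8, 48.2 and 41.7 CPM in PBS, 42.2, 47.2 and 40.3 CPM in EV200, 47.8, 45.9 and 57.8 CPM in EV400, and 48.1, 48.8 and 46.8 CPM in normal libraries. The lowest r belonged to Usp36, a deubiquitinase, with -0.96, followed by Zfp692, Klc1, Madd and Zfp668. These libraries share depth and scaling with the 10 genes, and the ranking is a description. Of the lists, mitochondrial DNA maintenance and transcription was most like the 10 genes, with r = 0.70, and r = 0.48 without the 2 libraries.

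Kidney cell markers also differed between the libraries. In bulk tissue, fewer cells of a type and less RNA per cell cannot be told apart. The summed level of 14 proximal tubule markers was 31440 to 40790 CPM in PBS, 34670 to 44960 CPM in EV200, 43360 to 52090 CPM in EV400 and 49230 to 52540 CPM in normal libraries. PBS library 2 was lowest, and the sum of EV400 library 3 lay inside the normal range. That rests on 1 gene, Kap, an androgen-regulated kidney transcript, which had 25060 CPM in EV400 library 3 and 19440 to 22400 CPM in normal libraries. Without Kap the sum was 17260 to 24130 CPM in PBS, 19730 to 27880 CPM in EV200, 25370 to 27020 CPM in EV400 and 29790 to 30310 CPM in normal libraries, so that every library given cisplatin was below every normal one. In EV400 library 3, 7 of the 14 markers were below all normal libraries and 3 were above them. The sum of 8 thick ascending limb markers ran the other way, with 4587 to 5617 CPM in PBS, 5261 to 5861 CPM in EV200, 4464 to 5255 CPM in EV400 and 3846 to 4332 CPM in normal libraries. All libraries given cisplatin were above all normal libraries in it. Its markers were not uniform. Umod, the most abundant, had 2825, 2195 and 2459 CPM in PBS and 1904, 2199 and 1944 CPM in normal libraries. Slc12a1 had 1054, 1184 and 900.5 CPM in PBS and 598, 732 and 638 CPM in normal libraries. Egf had 1213, 762.5 and 1002 CPM in PBS and 944, 1013 and 1021 CPM in normal libraries. Cldn10 had 174, 138 and 146.5 CPM in PBS and 170.5, 156 and 150 CPM in normal libraries. The sum of 9 macrophage markers was 586 to 1097 CPM in PBS, 362 to 997 CPM in EV200, 269 to 504 CPM in EV400 and 265 to 368 CPM in normal libraries, highest in PBS library 2. The sum of 10 tubular injury markers was 1224 to 1706 CPM in PBS, 911 to 1969 CPM in EV200, 667 to 992 CPM in EV400 and 514 to 628 CPM in normal libraries. This sum was highest in EV200 library 3. Its most abundant marker, Spp1, had 758 to 1087 CPM in PBS, 523 to 1326 CPM in EV200, 385 to 596.5 CPM in EV400 and 264.5 to 354 CPM in normal libraries. The part of these cell types in the levels above was not tested. Skeletal muscle markers, from another tissue rich in mitochondria, summed to at most 0.187 CPM. Brown adipocyte markers summed to 19.6 to 32.9 CPM over all libraries, and Ucp1, which defines those cells, was at most 0.921 CPM, in PBS library 3. The white adipocyte markers Adipoq, Plin1, Cidec and Retn had 7.67, 3.47, 7.35 and 3.6 CPM in PBS library 3. In every other library they had at most 0.414 CPM. Lep was at most 0.201 CPM, and Car3 was highest in normal library 2, with 63.2 CPM. The part of fat tissue in the levels of PBS library 3 was not tested. Slc34a1, the phosphate transporter of the proximal tubule, which marks the labelled tissue, had 3176 to 6665 CPM.

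The 6 genes with a nuclear copy and the 4 without one had medians of -0.17 and -0.09 for PBS against normal, 0.03 and -0.09 for EV200 against PBS, and 0.32 and 0.21 for EV400 against PBS. Both sets had values on the same side of 0 for PBS against normal and for EV400 against PBS. The part of reads from the copy in these values was not tested.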

How the data were processed

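Libraries were made from kidney RNA with a stranded poly(A) kit and read as paired ends, per the labels' protocols. The submitters' processing notes name HISAT2 2.1.0, StringTie 2.1.3b, Trimmomatic 0.38 and FastQC 0.11.7 with GRCm38 (mm10). Which program counted the reads, with which annotation and strand setting, is not given in the sources used here. In 1 table the authors deposited whole-number read counts per gene, not normalized, and TPM values, which are scaled to transcript length and to a fixed total per library. Counts were the basis of all tests, and TPM of the order of genes by level. The 12 FPKM columns were not used. No pair of libraries had identical counts, and all pairs within groups differed by more than sampling noise.

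Counts of all 12 libraries entered 1 fit with edgeR 4.0.16 in R 4.3.3: TMM factors, the default expression filter by group, the quasi-likelihood test and Benjamini-Hochberg adjustment over all genes tested, with an adjusted p under 0.05 as a call. The procedure was tested on simulated data. SE is the absolute log2 fold change over the root of its F statistic. Alternatives were DESeq2 1.42.0, limma-voom (limma 3.58.1) with quality weights, other scalings, no filter, the compared groups alone, a replicate block and leaving out each library. The medians of the nuclear subunits under these settings, those of the other lists with each library left out, and the proximal tubule sum without Kap were added after seeing the data. Shares of genes called by DESeq2 are of those with an adjusted p.

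Of the gene identifiers, 45679 of 45777 matched a RefSeq table of GRCm38.p6, which gave the coordinates. Sequences are from GENCODE vM21, compared with biopython 1.88. The 10 genes, the lists, the markers and the naming rule were chosen with earlier results of these data known. The rule names the 10 genes and the other genes of the mitochondrial genome, though of its tRNA genes only TrnN and TrnL1 are given above. It also names up to 3 genes with the smallest p of each list in a comparison, and the 5 genes most and least like the 10. Slc34a1 and Ucp1 are markers. Replicate numbers did not pair the libraries, since deviations correlated over 0.1 in 2 of 18 same-numbered pairs and in 8 of 36 other pairs.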

Additional observations from a re-analysis of the deposited data

How the results depend on the processing

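None of the 10 genes was called in any comparison under DESeq2's size factors, library totals alone, scaling without the mitochondrial genome, no filter, the compared groups alone, or with any 1 library left out. With the replicate number as a block 0 of the 10 genes were called, and the count of all genes called for PBS against normal was 0 in place of 514; numbers did not pair the libraries, and 2 of 12 correlated best with their own number. DESeq2 called 1 gene for EV400 against PBS, and limma-voom called 3 for PBS against normal, with quality weights from 0.163 for PBS library 2 to 3.47 for PBS library 3. Median log2 fold changes of the 10 genes moved by more than the SD of 0.171 between replicates to 0.048 for PBS against normal with library totals alone, and to 0.14 for EV200 against PBS and 0.053 for EV400 against EV200 with limma-voom. Leaving out 1 library gave 0.083 to 0.356 for the last. The cause was not tested.

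Directions reversed without a call. With library totals alone, log2 fold changes for PBS against normal were 0.093 (ND1), 0.10 (ND2), 0.094 (ND4), 0.080 (ND5), 0.0028 (CYTB), 0.016 (COX1) and 0.12 (ATP6), that of ND5 for EV400 against PBS was -0.021, and those for EV200 against normal were 0.0064 (CYTB), 0.050 (COX1), 0.010 (COX2), 0.044 (COX3) and 0.0026 (ATP6). With limma-voom, EV200 against PBS gave 0.11 (ND1), 0.11 (ND2), 0.13 (ND3), 0.14 (ND4), 0.019 (ND5) and 0.14 (ATP6). It gave 0.021 (COX1) and 0.026 (COX3) for EV200 against normal, and -0.0024 (ND2), -0.0096 (ND5) and -0.017 (CYTB) for EV400 against normal.
Leaving out 1 library, genes that changed sign ranged for PBS against normal over -0.20 to 0.025 (ND2), -0.15 to 0.0055 (ATP6). They ranged for EV200 against PBS over -0.15 to 0.036 (ND1), -0.19 to 0.053 (ND2), -0.15 to 0.10 (ND3), -0.11 to 0.071 (ND4), -0.13 to 0.063 (ATP6). They ranged for EV400 against normal over -0.019 to 0.28 (ND1), -0.051 to 0.22 (ND2), -0.061 to 0.33 (ND3), -0.015 to 0.26 (ND4), -0.053 to 0.19 (CYTB), -0.0043 to 0.24 (COX2), -0.020 to 0.27 (COX3), -0.0074 to 0.34 (ATP6). They ranged for EV200 against normal over -0.11 to 0.0048 (COX3).

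Of the 272 genes of the nuclear lists, the fit called 0 in every comparison. DESeq2 called 19 for PBS against normal, 11 for EV400 against PBS and 1 for EV200 against normal. Of all genes it called 16.2, 6.99 and 2.62% in these comparisons. limma-voom called 127, 33 and 4 there, against 32.9, 14.6 and 5.86% of all genes. It called 20 for EV200 against PBS and 4 for EV400 against normal, against 8.8 and 7.91% of all genes. Library totals alone gave 1 for PBS against normal and 1 for EV200 against normal, with 541 and 27 of all genes called. The compared groups alone gave 3 for PBS against normal, with 1449 of all genes called. Leaving out 1 library gave 0 to 29 for PBS against normal and 0 to 1 for EV200 against normal. The counts over all genes were then 0 to 2405 and 2 to 90. Per 100 counts outside the mitochondrial genome, the 10 genes had 18.4 in PBS, 17.8 in EV200, 20.2 in EV400 and 17.8 in normal kidneys.

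Counts of all genes called depend on the setting: for PBS against normal 299 without the filter, 1449 with the compared groups alone, 2855 with DESeq2 and 6164 with limma-voom, and 0 to 2405 with 1 library left out. The counting error of the 10 genes is far below the spread between libraries. For PBS against normal their standard errors ran from 0.12 to 0.19 (log2).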
